A study of Mus musculus with 58 samples.

Results

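The genes described here are 36 components of the excitatory synapse: 21 glutamate receptor genes and 15 genes for the postsynaptic scaffolds and the kinase that sit beneath those receptors. They were chosen by name, as a list of gene symbols, with no cutoff on a measured value. Each of the 36 was matched by its Ensembl identifier to 1 row of every count table, out of 54532 genes in the RNA-seq tables and 18411 genes in the tables of ribosome footprints and lysate RNA. All 36 had counts above 0 in every RNA-seq library.

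Glutamate is the main excitatory transmitter of the brain, and cortical and thalamic axons release it onto the spiny projection neurons of the striatum. AMPA, NMDA and kainate receptors are ion channels assembled from several subunits, and metabotropic receptors signal through G proteins. Beneath the postsynaptic membrane, PSD-95 and its relatives hold the channels in place, SAPAP and Shank proteins link this layer to Homer proteins and the actin cytoskeleton, and the kinase CaMKII acts on receptors and scaffolds when calcium enters.

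Striatal tissue of 2 mouse lines was measured. In the 3g line, del/+ mice carry CRISPR-made stop mutations on 1 chromosome in each of 3 genes, Taok2, Sez6l2 and Mvp, and in the 16p11.2 line, del/+ mice lack 1 copy of a segment of 27 genes that holds the same 3. The alleles are germline ones, not restricted to a cell type, and wt littermates were the controls in each line. RNA-seq covered 32 libraries, 4 for each combination of line, genotype (wt, del/+) and sex, from mice of 10 to 14 weeks. A second set came from 13 other males, whose age was not given in the sources used here: 3 wt and 3 del/+ of the 3g line, and 4 wt and 3 del/+ of the 16p11.2 line. Each of these animals gave 1 library of ribosome footprints, the short RNA pieces covered by ribosomes, and 1 of total RNA from the same lysate. The labels give strain B6129S for all samples. They say nothing of pooled tissue. Their extraction text names human brains and their molecule entry names polyA RNA, while the tissue entry is mouse striatum and the study's methods name depletion of ribosomal RNA. P-values measure the spread between these libraries.

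Total counts were 11711099 to 65529807 in the 3g RNA-seq libraries, 26592767 to 41300015 in the 16p11.2 ones, 15102576 to 19122488 in lysate RNA and only 342052 to 678130 in footprints. The mean level of the targeted genes in del/+ RNA-seq was 42.0% to 50.4% of wt in the 16p11.2 line, and in the 3g line 66.1% to 70.6% for Sez6l2, 71.0% to 75.7% for Mvp and 96.8% to 97.7% for Taok2. In lysate RNA and footprints of the 3g line it was 69.7% and 58.2% for Sez6l2, 95.3% and 102% for Mvp and 92.9% and 94.7% for Taok2, with Mvp and Taok2 overlapping between genotypes. In those of the 16p11.2 line it was 35.9% to 50.0%, except for Mvp footprints at 78.8%, which overlapped. The summed markers of spiny projection neurons (9 genes) were 4665 to 8611 CPM (counts scaled to a common library size) and all 9 were above 0 in every RNA-seq library, while 8 cortical excitatory markers summed to 89.9 to 1410 CPM and 3 thalamic ones to 14.2 to 32.1 CPM. The library 3g wt male 17 stood apart from its line: over the 36 genes, its value lay inside the range of the other 15 libraries of its line for 14 genes and inside that of 15 libraries of the 16p11.2 line for 34. For 16p11.2 del/+ male 4 the numbers were 21 genes within its own line and 19 within the other. Xist, the RNA of the silenced X chromosome, was at 0.463 CPM in del/+ female 1 of the 16p11.2 line, against at least 324 CPM in the other 15 libraries labelled female and at most 0.537 CPM in males.

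CPM is not corrected for transcript length, so levels are given per gene and are not ranked against each other. Each pair of values is the median of the 8 wt libraries of the 3g and of the 16p11.2 line. Among the AMPA receptor subunits, which carry most fast excitatory current, Gria1 had wt medians of 525 and 469 CPM. Gria2, whose edited subunit keeps calcium out of the channel, had 686 and 433 CPM. For Gria3 the medians were 207 and 196 CPM. Gria4 is best known from interneurons and had 73.4 and 81.0 CPM.

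The NMDA receptor needs the obligatory GluN1 subunit, made by Grin1, together with a GluN2 or GluN3 subunit that sets its kinetics. Grin1 had wt medians of 371 and 339 CPM. Grin2b, the slower subunit of young and striatal synapses, had 425 and 403 CPM. Grin2a, the faster subunit of mature synapses, had 99.6 and 123 CPM. The remaining subunits are known from fewer cell types. Grin2c had medians of 65.4 and 59.1 CPM, Grin2d of 11.8 and 8.43 CPM, and Grin3a of 33.6 and 34.1 CPM. The plot of the NMDA receptor subunits by library shows how closely the groups lie together.

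**Figure D1:**
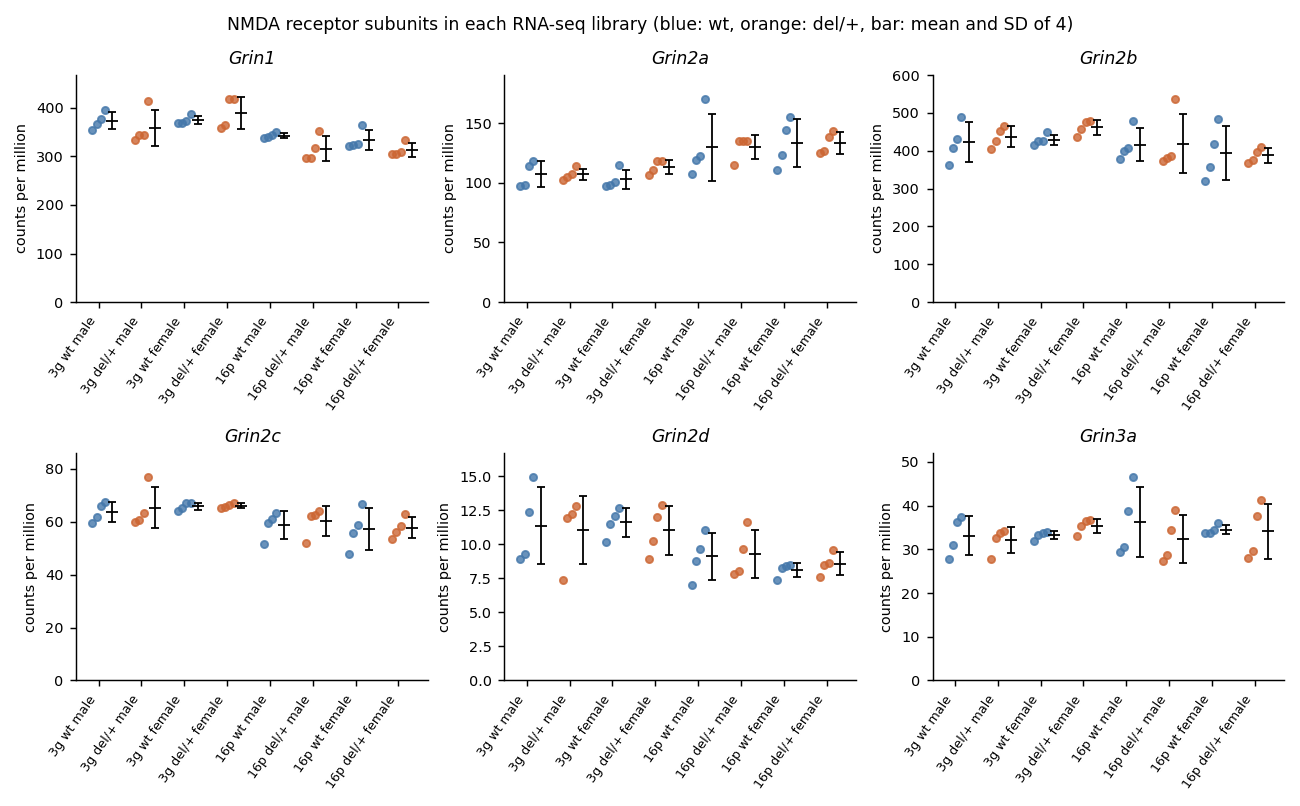
Level of the 6 NMDA receptor subunits in CPM (y axis, from 0) in each of the 32 RNA-seq libraries, by line, sex and genotype (x axis), with the mean and SD of each group of 4 as a bar. Values of wt (blue) and del/+ (orange) libraries overlapped in each subunit's 3g and 16p11.2 groups, and the highest Grin2a value of the 16p11.2 wt males was 170 CPM in 1 library.

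Kainate receptors were represented by 2 ordinary subunits and 2 high-affinity ones that need a partner. Grik1 had wt medians of 7.77 and 8.26 CPM. Grik2 had 173 and 108 CPM. The high-affinity subunit Grik4 had 18.3 and 20.7 CPM. Grik5, its close relative, had 309 and 327 CPM. Grid1 belongs to the delta receptors, which bind presynaptic organizers rather than working mainly as glutamate channels, and had 91.9 and 105 CPM.

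Of the metabotropic receptors, Grm5 couples to calcium release in the postsynaptic cell and had wt medians of 344 and 253 CPM. The other 5 lower cyclic AMP, largely in axon terminals. Grm2 had 2.97 and 13.6 CPM. Grm3, which astrocytes also make, had 79.0 and 96.7 CPM. Grm4 is known from the terminals of spiny neurons and had 111 and 109 CPM. Grm7 had medians of 67.1 and 47.2 CPM. Grm8 had medians of 5.93 and 12.1 CPM.

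The PSD-95 family came first among the scaffolds. Dlg4, which encodes PSD-95, had wt medians of 917 and 1173 CPM. Its relatives share the same domains. Dlg1 (SAP97) had 218 and 222 CPM, Dlg2 (PSD-93) had 503.6 and 628 CPM, and Dlg3 (SAP102) had 191 and 203 CPM. The SAPAP genes bind PSD-95 on one side and Shank on the other. Dlgap1 had 154 and 272 CPM and Dlgap2 had 78.9 in both lines. Dlgap3, the SAPAP gene best known from the striatum, had 451 and 737 CPM, and Dlgap4 had 243 and 266 CPM.

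Shank proteins form the next layer. Shank1 had wt medians of 215 and 341 CPM, Shank2 of 164 and 166 CPM, and Shank3, whose loss alters corticostriatal synapses, of 463 and 569 CPM. Homer proteins tie Shank to Grm5. Homer2 had 22.5 and 31.1 CPM and Homer3 had 5.73 and 6.19 CPM. The alpha subunit gene of CaMKII, Camk2a, had 2528 and 3803 CPM. Its beta subunit gene, Camk2b, had 1729 and 1422 CPM.

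Within a group of 4 libraries these genes varied about as much as other genes did. The median SD of log2 CPM within groups was 0.16 over the 36 genes and 0.17 over 15096 genes with a mean of at least 1 CPM. Dlg3 varied least, with an SD of 0.08. Grm2 varied most, with an SD of 0.62, which placed it at the 98.0th percentile of all genes, and Grm8 followed with 0.32.

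The wt levels of the lines overlapped for every gene of the list when all 8 wt libraries of each line were used, and 3.2% of all genes did not overlap. Without 3g wt male 17, 13 of the 36 genes no longer overlapped, against 43% of all genes, so that the genes of the list did not stand out. Grm2, Grm8, Dlg2, Dlg4, Dlgap1, Dlgap3, Dlgap4, Shank1 and Camk2a were higher in the 16p11.2 line, and Gria2, Grik2, Grm7 and Camk2b were higher in the 3g line. The lines came in separate tables, so line and batch cannot be told apart.

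Footprints come from RNA covered by ribosomes, and their ratio to lysate RNA is given relative to a typical gene. It is a ratio of counts, with no correction for coding length or for the parts of a gene counted. It is therefore not ribosome density as such. In wt striatum the members of one receptor or scaffold family differed in this ratio. Over the list as a whole the spread was not above that of all genes. The NMDA receptor gave the largest contrast: Grin1 and Grin2d had about 4 times as many footprints as the typical gene of the same RNA level, while Grin2b had fewer. The scaffolds divided in the same way, with Shank3 and Dlgap3 above and Dlg1, Dlg2 and Dlgap1 below the typical gene. Footprint and lysate RNA libraries were compared in 1 edgeR quasi-likelihood fit per line, with Benjamini-Hochberg adjustment over all genes tested. Each animal gave both libraries, but the animal was not a term in this fit.

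Among 3g wt animals 16 of the 30 members tested differed from the typical gene at an adjusted p under 0.05, 8 above and 8 below, and 64.4% of all 4753 genes tested did so. In the 16p11.2 line 20 of 31 differed, 10 above and 10 below, against 67.5% of 4605 genes. The share of members called was therefore not above that of all genes. In both lines 16 members were called on the same side and none on opposite sides. Across the 30 members tested in both lines the ratios had a Pearson r of 0.923, and across 4012 genes it was 0.954. The lines share the assay and no animals. The SD of the mean ratio was 0.95 over the members and 1.196 over all genes.

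The ratio is centred by TMM, so "above" and "below" are relative to the middle of all genes. With library totals in its place the median of all genes moved up by 0.68 in the 3g line and by 0.16 in the 16p11.2 line. The split of called members then became 18 above and 3 below in the 3g line, where Gria1 and Grik2 changed from below to above 0 and were no longer called. It became 12 above and 7 below in the 16p11.2 line, where no called member changed sign. Gria2, Grm5 and Dlgap1 in the 3g line and Gria2, Grik2 and Grm7 in the 16p11.2 line kept their sign but were no longer called. Differences between members within an animal do not depend on this centring.

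The 5 members with the highest mean of the 2 lines were all receptor subunits. Grin1 (chromosome 2, 25291177 to 25319187 on GRCm38) had a log2 ratio of 1.92 ± 0.16 (SE, n = 3 animals) in the 3g line and 2.12 ± 0.15 (n = 4) in the 16p11.2 line, with edgeR adjusted p = 8.58e-06 and 4.80e-09. In single wt animals its footprints were 690, 766 and 794 CPM over lysate RNA of 160, 136 and 146 CPM in the 3g line. In the 16p11.2 line they were 528, 609, 613 and 744 CPM over 91.7, 114, 130 and 126 CPM. CPM are scaled within each assay, whereas ratios per animal use 1 scaling over both assays and are therefore not the quotient of these CPM. On that scale every animal of both lines and genotypes had a log2 ratio of Grin1 between 1.59 and 2.18.

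Grin2d (chromosome 7, 45831883 to 45871194), a subunit best known from interneurons and midbrain, had log2 ratios of 2.12 ± 0.22 and 1.88 ± 0.21, from 13 to 34 footprint counts per wt library. Grik4 (chromosome 9, 42518182 to 42945000) had 2.44 ± 0.36 and 1.38 ± 0.27. Its value in the 3g line was pulled up by animal 300, with 73 footprint counts and a log2 ratio of 3.08, against 1.90 and 1.35 in the other 3g wt animals, and without that animal the fitted value was 1.72. Grik5 had 1.23 ± 0.16 and 1.31 ± 0.13, and Grin2c, known from astrocytes and cerebellum, had 0.98 ± 0.18 and 1.40 ± 0.22. All 10 of these values passed the test in edgeR, with adjusted p of at most 0.000996.

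The 5 lowest ratios belonged to scaffolds, to Grin2b and to Grm5. Dlg2 (chromosome 7, 90476188 to 92449246) had log2 ratios of -2.07 ± 0.19 in the 3g line and -1.75 ± 0.13 in the 16p11.2 line, or 0.297 times the typical gene in the latter. Its lysate RNA in wt animals was 740, 740 and 796 CPM in the 3g line, with footprints of 266, 271 and 191 CPM. In the 16p11.2 wt animals lysate RNA was 755 to 826 CPM and footprints 278 to 311 CPM. Footprints were below lysate RNA in each of the 13 animals.

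Dlg1 (chromosome 16, 31663443 to 31873356) had -1.69 ± 0.16 and -0.98 ± 0.18, and Dlgap1 (chromosome 17, 69969073 to 70821413) had -1.18 ± 0.26 and -1.17 ± 0.14. Grin2b (chromosome 6, 135713221 to 136173615) had -1.32 ± 0.18 and -0.91 ± 0.16. Grm5 (chromosome 7, 87583981 to 88135063) had -0.84 ± 0.16 and -0.72 ± 0.15. All 10 values passed the test, with edgeR adjusted p of at most 0.00239. With library totals Grm5 (-0.16) and Dlgap1 (-0.48) kept their sign in the 3g line but were no longer called.

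By family, with TMM scaling, 2 of 4 AMPA receptor subunits were below the typical gene in both lines, Gria1 (-0.47 and -0.62) and Gria2 (-0.78 and -0.34), and Gria3 and Gria4 did not pass the test in either. Of the kainate receptor subunits, Grik2 was below (-0.61 and -0.44) while its partners Grik4 and Grik5 were above. Among metabotropic receptors Grm4 was above (0.41 and 0.64). Grm3 did not pass the test in either line, nor did the delta receptor Grid1. In the scaffolds Shank3 (0.66 and 1.10) and Dlgap3 (0.60 and 1.04) were above. Neither Dlg3, Dlg4, Dlgap2, Dlgap4, Shank2, Camk2a nor Camk2b passed the test in either line.

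For 3 members the call was made in the 16p11.2 line only, and the difference between the lines was not tested. These were Grin2a with -0.17 ± 0.34 and 0.88 ± 0.15, Shank1 with 0.51 ± 0.27 and 0.83 ± 0.16, and Grm7 with 0.21 ± 0.17 and -0.50 ± 0.19. Grin2a had a log2 ratio of -1.67 in 3g wt animal 300, where footprints were at 104 CPM, and 1.77 in 1 del/+ animal of the 16p11.2 line, where they were at 775 CPM. Homer2 was tested in the 16p11.2 line alone, at -0.88 ± 0.18. Grin3a, Grik1, Grm2, Grm8 and Homer3 had too few footprints to be tested in either line.

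**Figure D2:**
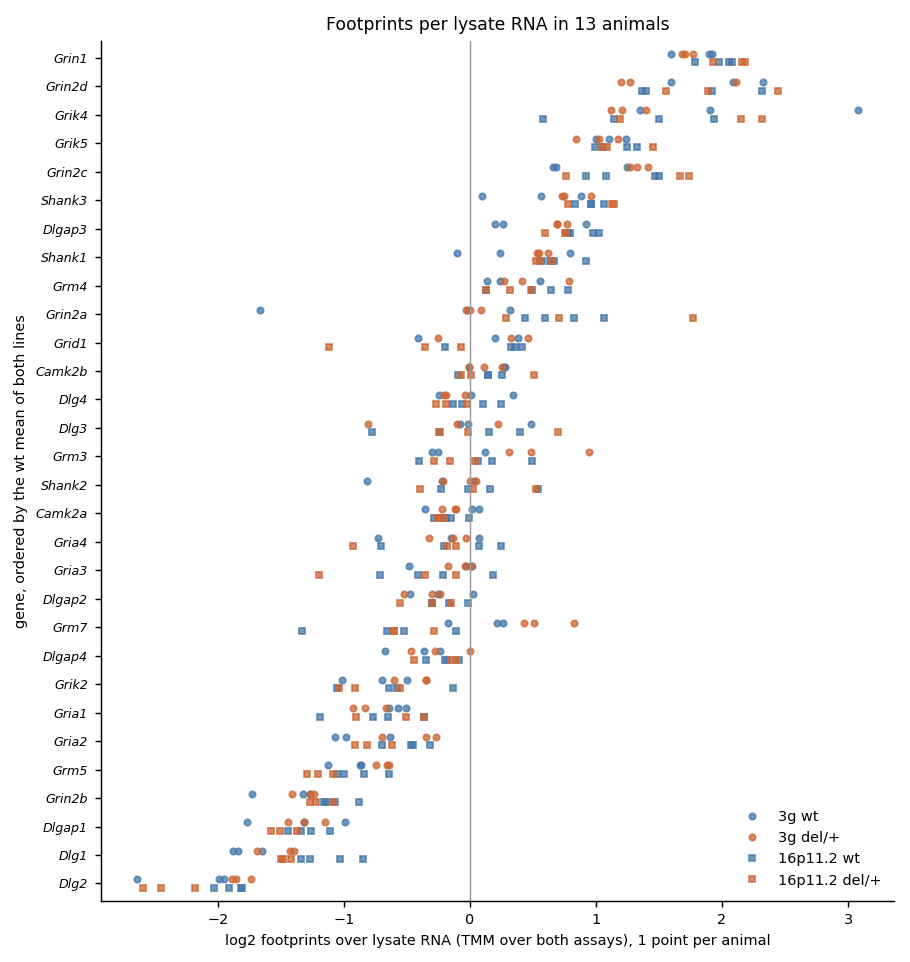
Log2 ratio of footprints to lysate RNA, scaled by TMM over the libraries of both assays together (x axis), of the 30 members tested in both lines (y axis, ordered by the wt mean), with 1 point per animal, 13 in all, by line and genotype. Grin1 lies between 1.59 and 2.18 and Dlg2 between -2.65 and -1.74 in every animal.

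Members of one receptor type or scaffold family, not all of them partners in a complex, could be compared in the same animal, which removes library size. These pairs were picked after the ratios had been seen. Grin1 exceeded Grin2b, its usual striatal partner, in 13 of 13 animals, by 3.14 ± 0.23 on the log2 scale (SD), an 8.82-fold difference. It exceeded Grin2a by 1.57 ± 0.72, also in 13 of 13. Dlg4 exceeded Dlg2 by 2.02 ± 0.37, Dlgap3 exceeded Dlgap1 by 2.06 ± 0.22, Grik5 exceeded Grik2 by 1.77 ± 0.39 and Grm4 exceeded Grm5 by 1.34 ± 0.29, each in 13 of 13 animals. Shank3 lay above Shank1 in all 13, by 0.28 ± 0.15, and Shank1 above Shank2, by 0.59 ± 0.32. In other pairs the order varied between animals: for Gria1 and Gria2, Gria1 was higher in 5 of 13 animals and the mean difference was -0.05 ± 0.39, and for Camk2a and Camk2b, Camk2a was higher in 2 of 13 and the difference was -0.30 ± 0.23.

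The ratio moved with the length of the gene. Across the 30 members its Spearman rho with genomic span (RefSeq, GRCm38.p6) was -0.64, and across 3934 genes with a span it was -0.24. The genes share libraries and are not independent. Grin1 spans 28.01 kb and Dlg4, which did not pass the test in either line, 28.3 kb, whereas Grin2b spans 460 kb and Dlg2 1973 kb. Single genes departed from this: Grik4, at 427 kb, and Grid1, at 763 kb, had mean log2 ratios of 1.91 and 0.29. Which parts of a gene were counted in the lysate libraries was not given in the sources used here, so that the part of introns or untranslated regions in the ratio was not tested.

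Other genes of the same pathway were taken as 2 lists. Of 14 auxiliary receptor subunits (TARPs, cornichons, Shisa and Neto proteins), 11 were tested in wt: 2 were above and 5 below in the 3g line, 3 above and 3 below in the 16p11.2 line, where 64.4% and 67.5% of all genes were called on either side. Of 23 postsynaptic signalling and anchoring genes, 5 of 21 were above and 11 below in the 3g line, and 4 of 19 above and 10 below in the 16p11.2 line.

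The genotype comparison asked whether either mutation changed these genes. None of the 36 passed the test in any sex of either line by RNA-seq, by edgeR or by DESeq2. The changes were small: the median absolute log2 change of the members was 0.06 to 0.07 in the 4 comparisons, and over all genes it was 0.07 to 0.14. In 28 to 33 of the 36 genes the 95% interval lay within 0.5 of zero on the log2 scale. A miss of the threshold does not show that levels were equal, and Grm2 had the widest interval in all 4 comparisons.

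**Figure D3:**
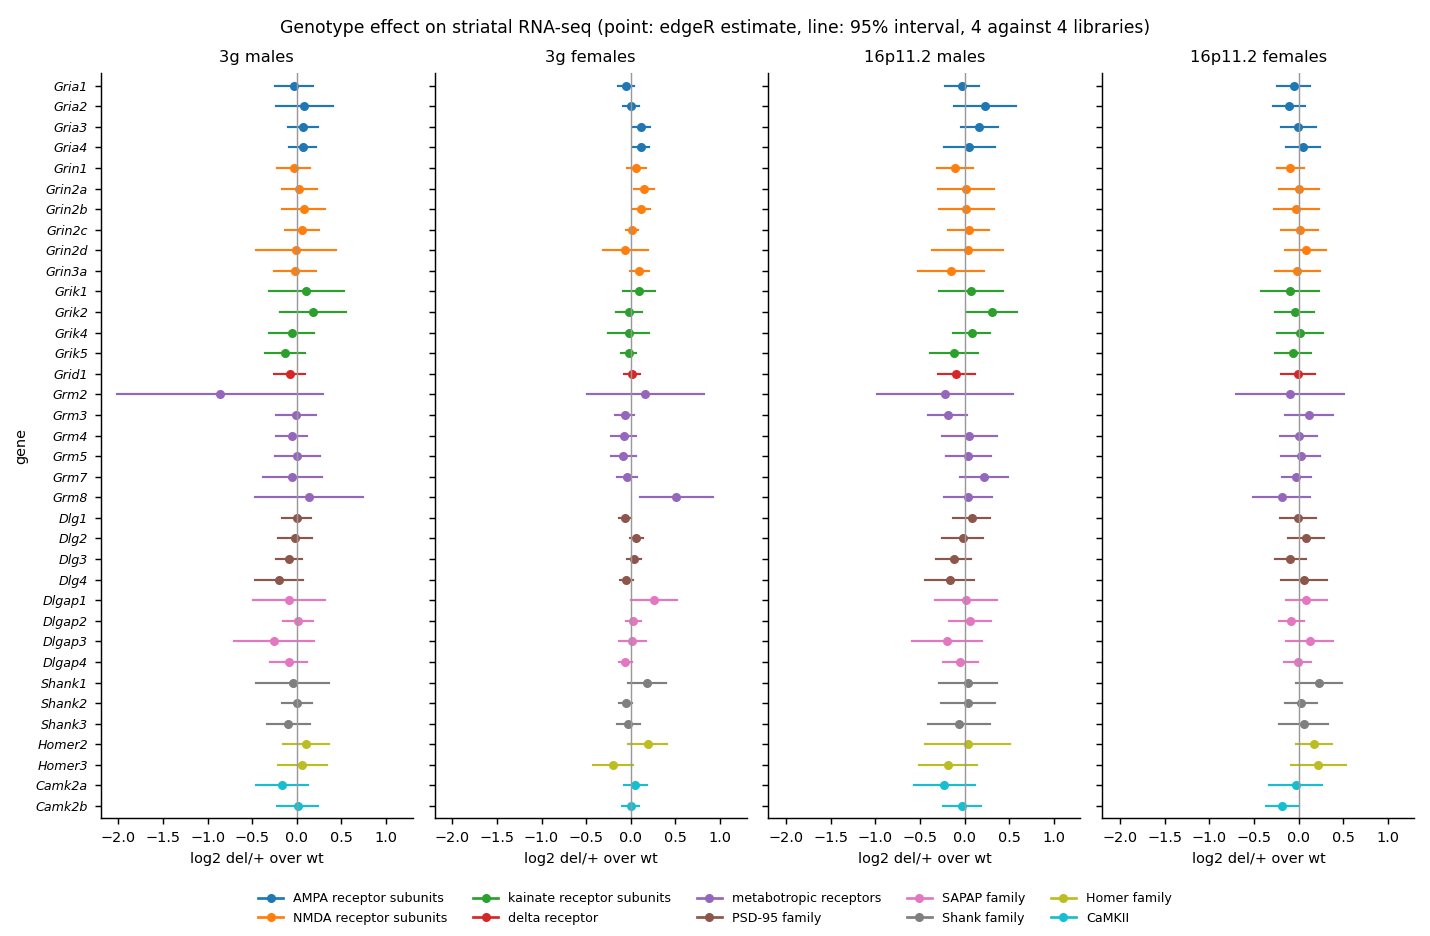
Log2 change of del/+ over wt (x axis) for the 36 genes (y axis, by family) in RNA-seq of 3g males, 3g females, 16p11.2 males and 16p11.2 females, with the edgeR estimate as a point and its 95% interval as a line. The intervals of 36 genes in 3g males include 0, the widest is that of Grm2 at -0.86, and the 3g females have the narrowest intervals and 6 that lie above 0.

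In 3g males 0 of 36 members were called and 0 had an unadjusted p under 0.05 by edgeR's quasi-likelihood test. Of all 19081 genes 0% were called and 1.44% had such a p. The mutated Sez6l2 was thus not called either, though its del/+ mean was 66.1% of wt and its groups did not overlap. The paper reported differentially expressed genes in this comparison, and its text does not name the test. Among the members the smallest p belonged to Grm2. Its 4 del/+ libraries had 2.84, 3.17, 3.25 and 3.48 CPM, and the wt libraries had 2.28, 2.94, 3.98 and, in male 17, 14.9 CPM. The log2 change was -0.86 ± 0.52 (SE, adjusted p = 0.974), and without male 17 it was 0.08 ± 0.18, so 1 library set the value and its direction. Male 17 also had the highest cortical marker sum of the 3g wt males, 979 CPM against 89.9 to 359. Its oligodendrocyte marker sum was 10352 CPM against 3793 to 5518, and its endothelial marker sum 76.6 CPM against 127 to 138. The part of these cell types in its Grm2 value was not tested.

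Dlg4 had 742, 812, 825 and 931 CPM in 3g del/+ males and 829, 879, 918 and 1242 CPM in wt males, the highest again in male 17. Its log2 change was -0.20 ± 0.12 (edgeR adjusted p = 0.974), and without male 17 it was -0.07. Dlg3 had 171, 182, 183 and 187.7 CPM in del/+ males and 188, 188, 203 and 207 CPM in wt males. These groups did not overlap, by a margin far below their spread, and the log2 change was -0.09 ± 0.07 (adjusted p = 0.974).

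In 7 of the 8 RNA-seq groups, all but the 3g del/+ females, the library with the most Grm2 also had the highest cortical marker sum. In the 16p11.2 line the wt libraries with the most Grm2, male 4 with 36.4 CPM and female 3 with 28.2 CPM, had cortical sums of 1410 and 1326 CPM, and the other wt libraries had 10.4 to 15.2 CPM with sums of 821 to 1068 CPM. In the 3g line wt female 39 had 7.12 CPM with a sum of 634 CPM. The 3 other wt females had 2.55 to 3.00 CPM with sums of 172 to 218 CPM. The part of cortical tissue in the Grm2 values was not tested.

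**Figure D4:**
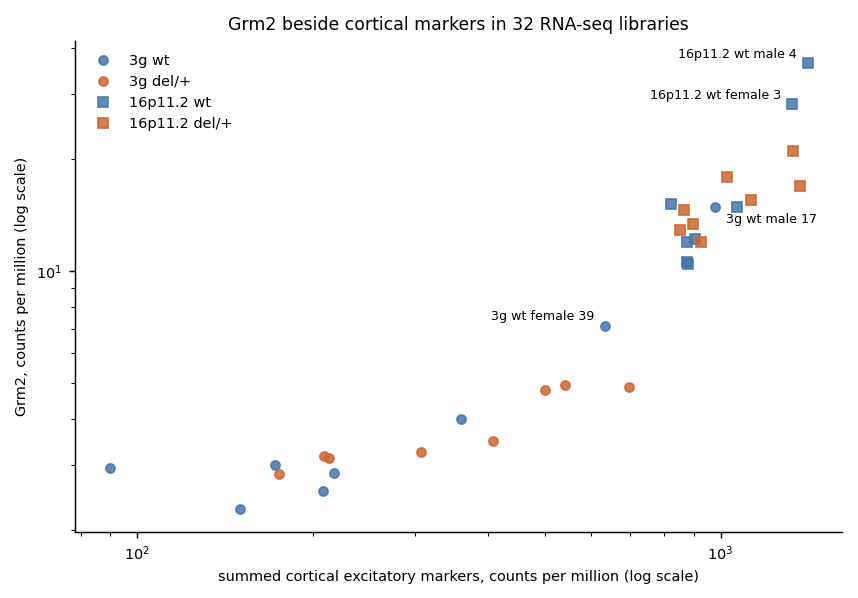
Grm2 in CPM (y axis, log scale) against the summed CPM of 8 cortical excitatory markers (x axis, log scale) in 32 RNA-seq libraries, by line and genotype. The 3g wt male 17 library lies at 979 and 14.9 CPM, among the 16p11.2 libraries, while the other 3g wt males lie at 89.9 to 359 and 2.28 to 3.98 CPM.

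In 3g females 0 of 36 members were called by edgeR and by DESeq2, and 0.00526% of 19024 genes were called by edgeR. An unadjusted p under 0.05 was found for 6 members (11% of all genes), all of them higher in del/+: Grin2a, Grin2b, Gria3, Gria4, Grm8 and Dlgap1. Grin2a had 107, 110, 118 and 118 CPM in del/+ and 97.3, 98.4, 101 and 114 CPM in wt, the 114 in female 39. Its log2 change was 0.15 ± 0.05 (adjusted p = 0.342). Grm8 had 7.54, 8.25, 8.58 and 11.3 CPM in del/+ and 4.55, 5.01, 6.53 and 8.87 CPM in wt, the 8.87 in female 39, and its log2 change was 0.51 ± 0.19 (edgeR adjusted p = 0.365). Both overlapped between genotypes through that library.

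Gria4 had 73.9, 75.9, 81.0 and 81.9 CPM in 3g del/+ females and 70.0, 72.8, 73.6 and 74.9 CPM in wt females, a log2 change of 0.11 ± 0.04 (edgeR adjusted p = 0.369). The other changes were 0.12 ± 0.04 for Gria3, 0.12 ± 0.04 for Grin2b and 0.26 ± 0.12 for Dlgap1. Without wt female 39 the edgeR fit called Grin2a (log2 change 0.20, adjusted p = 0.0472) and Grm8 (0.73, adjusted p = 0.0443). The calls over all genes then rose from 1 to 175, and 12 members had an unadjusted p under 0.05. Cortical marker sums in these females were 213 to 696 CPM in del/+ (median 521) and 172 to 634 CPM in wt (median 213), with the 634 in female 39, and their part in these values was not tested.

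In 16p11.2 males 0 of 36 members were called by edgeR and by DESeq2, against 0.106% of 17957 genes by edgeR. Only Grik2 had an unadjusted p under 0.05 (5.82% of all genes). It had 106, 116, 127 and 139 CPM in del/+ and 83.5, 90.6, 110 and 113 CPM in wt, a log2 change of 0.30 ± 0.13 (edgeR adjusted p = 0.742). Grm3 had 79.2, 83.4, 87.8 and 89.0 CPM in del/+ and 85.1, 95.4, 98.0 and 110 CPM in wt, a change of -0.19 ± 0.10 (adjusted p = 0.742). Of its 4 wt values, 3 lay above every del/+ value, and the change was -0.12 without wt male 4.

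Grm7 had 47.3, 48.8, 49.8 and 64.7 CPM in 16p11.2 del/+ males and 41.2, 44.5, 46.4 and 50.4 CPM in wt males, a change of 0.21 ± 0.12 (edgeR adjusted p = 0.742). The 64.7 CPM came from del/+ male 4. Without that library the change of Grm7 was 0.09 ± 0.09, that of Grik2 0.23 ± 0.12 and that of Grm3 -0.18 ± 0.10.

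In 16p11.2 females 0 of 36 members were called by edgeR and by DESeq2 and 0 had an unadjusted p under 0.05, against 0.144% and 4.47% of 18067 genes. Camk2b had 1233, 1309, 1364 and 1465 CPM in del/+ and 1453, 1471, 1555 and 1618 CPM in wt, a log2 change of -0.18 ± 0.09 (edgeR adjusted p = 0.998). Shank1 had 318.2, 419, 431 and 444 CPM in del/+ and 309, 328, 357 and 385 CPM in wt, a change of 0.23 ± 0.12 (adjusted p = 0.998). Homer2 had 32.8, 34.2, 36.3 and 41.2 CPM in del/+ and 28.5, 32.1, 33.1 and 34.8 CPM in wt, a change of 0.17 ± 0.09 (adjusted p = 0.998). The highest Shank1 and Homer2 values came from the library labelled female 1, and without it the changes were 0.18 ± 0.12 and 0.10 ± 0.09.

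The effect of genotype was also compared between the sexes, as the change in females minus that in males over the 16 libraries of a line. No member passed this test by edgeR or DESeq2 in either line, and 0% of genes did by edgeR in both. For the 3g line 0 members had an unadjusted p under 0.05 (2.69% of genes). The smallest p were those of Dlg3, with a difference of 0.14 ± 0.07, Homer3, with -0.26 ± 0.16 (-0.17 without del/+ female 36), and Grm2, with 1.05 ± 0.67 and, without wt male 17, 0.10 ± 0.41 (edgeR adjusted p = 0.901 for all 3 with all libraries).

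In the 16p11.2 line 1 member had an unadjusted p under 0.05 (4.33% of genes). Homer3 had a difference of 0.41 ± 0.19 (edgeR adjusted p = 0.835). In females it had 5.54, 6.59, 7.83 and 8.04 CPM in del/+ and 5.22, 6.02, 6.34 and 6.45 CPM in wt, and in males 4.70, 5.44, 5.88 and 6.33 CPM in del/+ and 5.91, 6.17, 6.22 and 7.23 CPM in wt. Grik2 differed by -0.35 ± 0.17 and Grm3 by 0.31 ± 0.16. Without del/+ male 4 and the library labelled female 1 together, 0 members were called and 1 had an unadjusted p under 0.05.

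The lysate RNA of the 13 other males gave the same count. Of 36 members 0 were called in the 3g line, against 0.0209% of 14378 genes, and 0 in the 16p11.2 line, against 0.133% of 14330 genes, and DESeq2 called none in either. In the 3g line only Grm3 had an unadjusted p under 0.05 (4.92% of genes). It had 67.4, 76.3 and 81.2 CPM in del/+ and 74.5, 103 and 109 CPM in wt, a log2 change of -0.35 ± 0.13 (edgeR adjusted p = 0.940). Dlg4 had 381, 508 and 508 CPM in del/+ and 356, 369 and 428 CPM in wt, a change of 0.27 ± 0.13 (adjusted p = 0.940), and its RNA-seq estimate in 3g males had the other sign. Grik1 had 13.90, 13.97 and 15.2 CPM in del/+ and 10.995, 11.7 and 13.04 CPM in wt, a change of 0.26 ± 0.13 (adjusted p = 0.940) with groups that did not overlap.

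In the lysate RNA of 16p11.2 males 2 members had an unadjusted p under 0.05 (4.41% of genes), both lower in del/+. Grin1 had 77.9, 95.3 and 98.4 CPM in del/+ and 91.7, 114, 126 and 130 CPM in wt, a log2 change of -0.34 ± 0.14 (edgeR adjusted p = 0.990). Grik5 had 98.96, 112 and 121 CPM in del/+ and 126, 130, 133 and 133 CPM in wt, a change of -0.23 ± 0.10 (adjusted p = 0.990). Shank1 had 481, 515 and 559 CPM in del/+ and 485, 595, 652 and 789 CPM in wt, a change of -0.27 ± 0.15 (adjusted p = 0.990), or -0.15 without 1 wt animal. Grik5 was the only one of these with groups that did not overlap. The cortical marker sums of these lysates were 271 to 513 CPM in del/+ and 316 to 721 CPM in wt.

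Footprints were counted far less deeply, and the median SE of a member's log2 change was 0.24 in the 3g line and 0.22 in the 16p11.2 line, against 0.11 and 0.13 in lysate RNA. Changes within 0.5 could be bounded for only 1 and 2 members. In the 3g line 0 of 33 members tested were called by edgeR (0.0132% of 7553 genes) and 1 had an unadjusted p under 0.05 (7.97% of genes). In the 16p11.2 line 0 of 31 were called (0.117% of 5964 genes) and 1 had such a p (6.15% of genes). DESeq2 called none in either line, and gave no adjusted p for 16 and 9 of the members tested.

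The member with the smallest p in 3g footprints was Grik4. It had 21, 28 and 27 footprint counts in del/+ animals and 73, 31 and 19 in wt animals, the 73 in animal 300. In CPM these were 38.9, 35.5 and 39.8 in del/+ and 162, 66.9 and 41.9 in wt. The log2 change was -1.32 ± 0.39 (edgeR adjusted p = 0.414), and without wt animal 300 it was -0.58 ± 0.33. The groups did not overlap, by a margin small beside the spread of wt. With no filter on low counts Grik4 was called (-1.24, adjusted p = 0.0154), while calls over all genes rose from 1 to 127.

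Homer2 had 29.2, 41.3 and 42.6 CPM of footprints in 3g del/+ animals and 8.64, 19.8 and 33.3 CPM in wt, the lowest from 4 counts, a log2 change of 0.79 ± 0.43 (edgeR adjusted p = 0.673), which ranged from 0.41 to 1.32 with 1 wt animal left out. Grin1 had 538, 620 and 629 CPM in del/+ and 690, 766 and 794 CPM in wt. The groups did not overlap and the change was -0.40 ± 0.22 (adjusted p = 0.675). The 3g del/+ footprint libraries all had more counts than the wt ones, and the part of depth in these values was not tested.

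In 16p11.2 footprints 24 of the 31 members tested had a lower estimate in del/+ and the median log2 change was -0.19, where the median over all genes was -0.01. With 1 wt animal left out the median was as small as -0.12. Astrocyte marker sums in these footprints did not overlap, at 2390 to 2580 CPM in del/+ and 2804 to 3596 CPM in wt. Other sums did: cortical markers were at 498.2 to 618 and 425 to 925 CPM, and spiny neuron markers at 2409 to 3469 and 2326 to 3856 CPM. Oligodendrocyte markers were at 2359 to 2821 and 2331 to 2667 CPM. The part of these cell types in the members' values was not tested. Grid1 had 7, 12 and 14 footprint counts in del/+ and 13, 25, 27 and 36 in wt, or 20.2, 34.1 and 42.8 CPM against 37.9, 54.4, 66.3 and 70.5 CPM. Its change was -0.81 ± 0.35 (edgeR adjusted p = 0.744), and without the del/+ animal of 7 counts it was -0.56 ± 0.37. Dlgap3 had 430, 514 and 516.5 CPM in del/+ and 572, 604, 666 and 803 CPM in wt, a change of -0.41 ± 0.20 (adjusted p = 0.811). Dlg2 had 202, 213 and 257 CPM in del/+ and 278, 292, 306 and 311 CPM in wt, a change of -0.37 ± 0.20 (adjusted p = 0.8287). For Dlgap3 and Dlg2 the groups did not overlap, and the same held for Gria2, Dlg4 and Shank1. The share of all genes with such groups was not computed, so no result about these members is drawn from the lack of overlap.

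**Figure D5:**
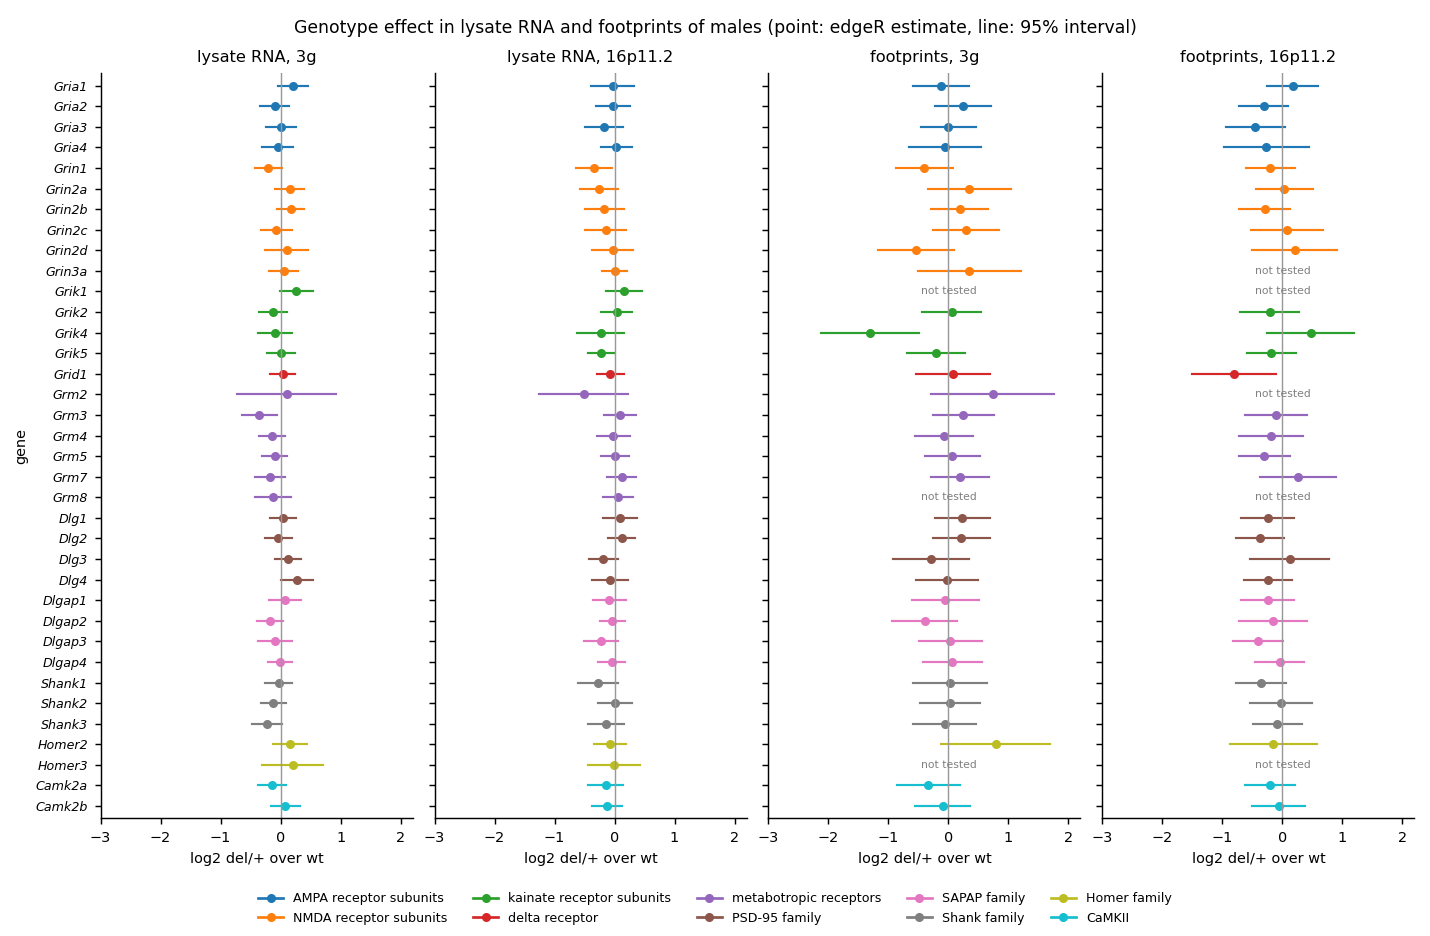
Log2 change of del/+ over wt (x axis) for the 36 genes (y axis, by family) in lysate RNA and in footprints of 3g and 16p11.2 males, with the edgeR estimate as a point and its 95% interval as a line. The intervals in footprints are wider than those in lysate RNA for most genes, the lowest estimate is -1.32 for Grik4 in 3g footprints, and genes with too few counts are marked as not tested.

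Footprints per lysate RNA were compared between genotypes as the interaction of genotype and assay, without a term for the animal. In the 3g line 0 of 33 members were called by edgeR and by DESeq2 (0% of 7493 genes by edgeR), and 2 had an unadjusted p under 0.05 (7.9% of genes). These were Grik4, with a difference of -1.22 ± 0.42 (edgeR adjusted p = 0.46595), and Grm3, with 0.60 ± 0.27 (adjusted p = 0.597). Without wt animal 300 the difference of Grik4 was -0.51 ± 0.35. Grin2d followed with -0.63 ± 0.35 (adjusted p = 0.674), or -0.42 without animal 300.

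In the 16p11.2 line 0 of 31 members were called by edgeR and by DESeq2 (0.017% of 5898 genes by edgeR), and 2 had an unadjusted p under 0.05 (5.39% of genes). The log2 ratio of Dlg2 was -2.59, -2.46 and -2.19 in del/+ animals and -2.04, -1.91, -1.82 and -1.81 in wt animals. These groups did not overlap, and the difference was -0.49 ± 0.19 (edgeR adjusted p = 0.813). Grid1 differed by -0.75 ± 0.32 (adjusted p = 0.905), and by -0.48 ± 0.35 without the same del/+ animal. Grik4 differed by 0.71 ± 0.41 (adjusted p = 0.986), in the other direction from the 3g line.

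The wider pathway lists gave the same counts as the receptors and scaffolds. None of the 14 auxiliary subunits and none of the 23 signalling and anchoring genes passed the edgeR test in any genotype comparison, where 0% to 0.144% of all genes did. In RNA-seq the most with an unadjusted p under 0.05 were found in 3g females, where 3 auxiliary subunits were higher, 5 signalling genes were higher and 1 was lower, against 11% of all genes in either direction.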

How the data were processed

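RNA-seq counts per gene were deposited by the authors, made with bcbio-nextgen and, by the processing notes, HTSeq on mm10. Footprint and lysate RNA counts were deposited for mm39 with Bowtie2 named. How these were counted was not given in the sources used here. The 22 highest lysate RNA counts all end in 0. No count carries a normalization. No measured value served as a cutoff for the 36 members, but they and the gene lists were chosen with earlier results of these data known.

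Each comparison was fitted over all genes in R 4.3.3 with edgeR 4.0.16 (filterByExpr, TMM, glmQLFit, glmQLFTest), with p-values adjusted by Benjamini and Hochberg and a threshold of 0.05 for a call. DESeq2 1.42.0 was an alternative. Scripts were tested on simulated counts. CPM of single libraries are TMM-normalized over all libraries of an assay, without a length correction. Ratios per animal are log2 of footprint over lysate RNA counts, with 0.5 added to each count, scaled by TMM over the 26 footprint and lysate RNA libraries together. All members are named, with full values for the called members or, failing 3 calls, the 3 smallest p, and for the 5 highest and 5 lowest wt ratios. Footprint and lysate RNA libraries of 1 animal come from 1 lysate, and their deviations from the group means correlated at 0.07 to 0.34. Intervals are 95%. Coordinates are from RefSeq on GRCm38.p6, the build of mm10.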

Additional observations from a re-analysis of the deposited data

Results flagged for a closer look

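In groups of 4 libraries or animals, a value was singled out when its gap to the nearest other value was a large share of the group's range (Dixon's test at 95%). Of 57 groups checked for the named members, 6 had such a value. The members were named by their p-values or ratios in the same data, and the groups share libraries. The count was therefore not set against a chance rate. Of the 6 values, 3 were of Grm2 in the 3g line: 14.9 CPM in wt male 17, where the others had 2.28 to 3.98, 7.12 CPM in wt female 39, where the others had 2.55 to 3.00, and 3.13 CPM in del/+ female 37, where the others had 4.79 to 4.93. Male 17 and female 39 had the highest cortical marker sums of their groups (979 and 634 CPM) and female 37 the lowest of its group (213 CPM). Male 17 and female 39 also had the highest oligodendrocyte marker sums of their groups (10352 and 6965 CPM). Female 37, with low Grm2, had the highest oligodendrocyte sum of its group as well (5629 CPM). Grm7 had 64.7 CPM in 16p11.2 del/+ male 4, where the others had 47.3 to 49.8. Homer3 had 4.91 CPM in 3g del/+ male 25, where the others had 5.82 to 5.89. The log2 ratio of footprints to lysate RNA of Grid1 was -0.20 in 1 wt animal of the 16p11.2 line, where the others had 0.32 to 0.41.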

How the results depend on the processing

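The count of members called stayed at 0 in 10 of the 12 genotype comparisons under every alternative run: DESeq2, RLE size factors, genes of low counts kept in, 1 fit per line over both sexes, the replicate block and each library or animal left out. In 3g females it ranged from 0 to 2 with 1 library left out, the 2 (Grin2a and Grm8) without wt female 39. In 3g footprints it was 1 (Grik4) with no filter on low counts. The Grm2 change in 3g males ran from -1.13 (without wt male 26) to 0.076 (without wt male 17) with 1 library left out, where it was -0.86 with all. Why these changed was not tested. In wt, the members called ran from 11 to 13 in the 3g line and from 17 to 20 in the 16p11.2 line with 1 animal left out, were 21 and 19 with library totals, and 15 and 22 with the replicate block by animal, where the fits without it gave 16 and 20. The block by animal left 0 members called between genotypes in both lines. The median log2 ratio in 3g wt moved to 0.70 with library totals. In 16p11.2 RNA-seq the labels' replicate numbers are shared by the groups, but same-numbered libraries did not deviate together (correlations of -0.30 to 0.14), and the replicate block left 0 members called in each sex. Footprint depth limits the footprint comparisons, where the median SE of a member's log2 change was 0.22 to 0.24.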
